A study of Homo sapiens with 24 samples.

Results

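TXNIP, the arrestin-domain genes ARRDC1 to ARRDC4, and the glucose-sensing transcription factors MLXIP (MondoA) and MLX were followed across 24 RNA-seq libraries of HEK293 cells, a line derived from human embryonic kidney. The 7 genes were taken by symbol from the 34305 genes listed. All 7 passed the filter on low counts, which left 17790 genes to test. They were proposed with results of these data known and were selected on measured values, those of TXNIP, which was known to be lower after 1 h of FGF23 in Klotho-bearing cells. That contrast is therefore given as a description, with no test of these genes.

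TXNIP belongs to the alpha-arrestins, adaptor proteins that share an arrestin fold and bring membrane cargo to ubiquitin ligases of the NEDD4 family. It binds reduced thioredoxin and promotes internalisation of glucose transporters. MondoA pairs with MLX, enters the nucleus when glucose 6-phosphate accumulates, and binds carbohydrate response elements built from a pair of E-box-like elements. TXNIP and ARRDC4 are its best known targets, and TXNIP mRNA turns over rapidly.

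The cells were a stable Klotho transfectant of HEK293 (Kl) and the HEK293 line without it (WT). Klotho is the co-receptor that lets FGF23, a hormone from bone, act through FGF receptors. Each line received 0.5 nM FGF23 for 1 h or 10 nM FGF23 for 24 h and had untreated controls (Ctrl) at both times, which gave 8 groups of 3 libraries. Dose and time change together between the FGF23 treatments, so their parts cannot be told apart. The labels state neither how many Kl clones were used nor that replicates came from separate cultures, so p-values measure the spread between these libraries.

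Libraries held 15849564 to 30446989 counts. KL, the gene of Klotho, had 16072 to 54039 counts in Kl libraries and 0 to 14 in WT libraries, and within Kl its level was higher with FGF23. Levels here are CPM, counts scaled to a common library size after TMM adjustment. KL had 1780 to 2170 CPM with FGF23 and 1170 to 1230 CPM in controls at 1 h, and 1800 to 1910 CPM with FGF23 and 1000 to 1020 CPM in controls at 24 h. Of 7 epithelial markers, 6 averaged above 1 CPM, the exception being PAX8, and their summed level was 533 to 735 CPM in Kl and 852 to 1100 CPM in WT. Summed fibroblast (12.6 to 31.6 CPM), endothelial (0.773 to 3.73 CPM) and blood (0.871 to 2.13 CPM) markers were low, whereas summed neuronal markers reached 238 to 328 CPM. The part of the KL and marker differences in the results below was not tested. The Kl libraries with 1 h of FGF23 stood apart: the median SD of log2 CPM over genes was 0.224 there and 0.084 to 0.122 in the other groups.

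The members lie on 7 chromosomes and differ widely in level. Per kilobase of gene length, mean levels over the 24 libraries were 15 CPM per kb for MLX, 14.5 for ARRDC1, 13.3 for ARRDC4, 9.71 for MLXIP, 7.42 for TXNIP, 2.08 for ARRDC3 and 1.60 for ARRDC2. Of neighbours in this order, the ranges over libraries overlapped for every pair except TXNIP and ARRDC3. The highest library exceeded the lowest 3.18-fold for TXNIP and for ARRDC3, 2.09-fold for ARRDC4, and 1.32-fold for MLX.

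**Figure D1:**
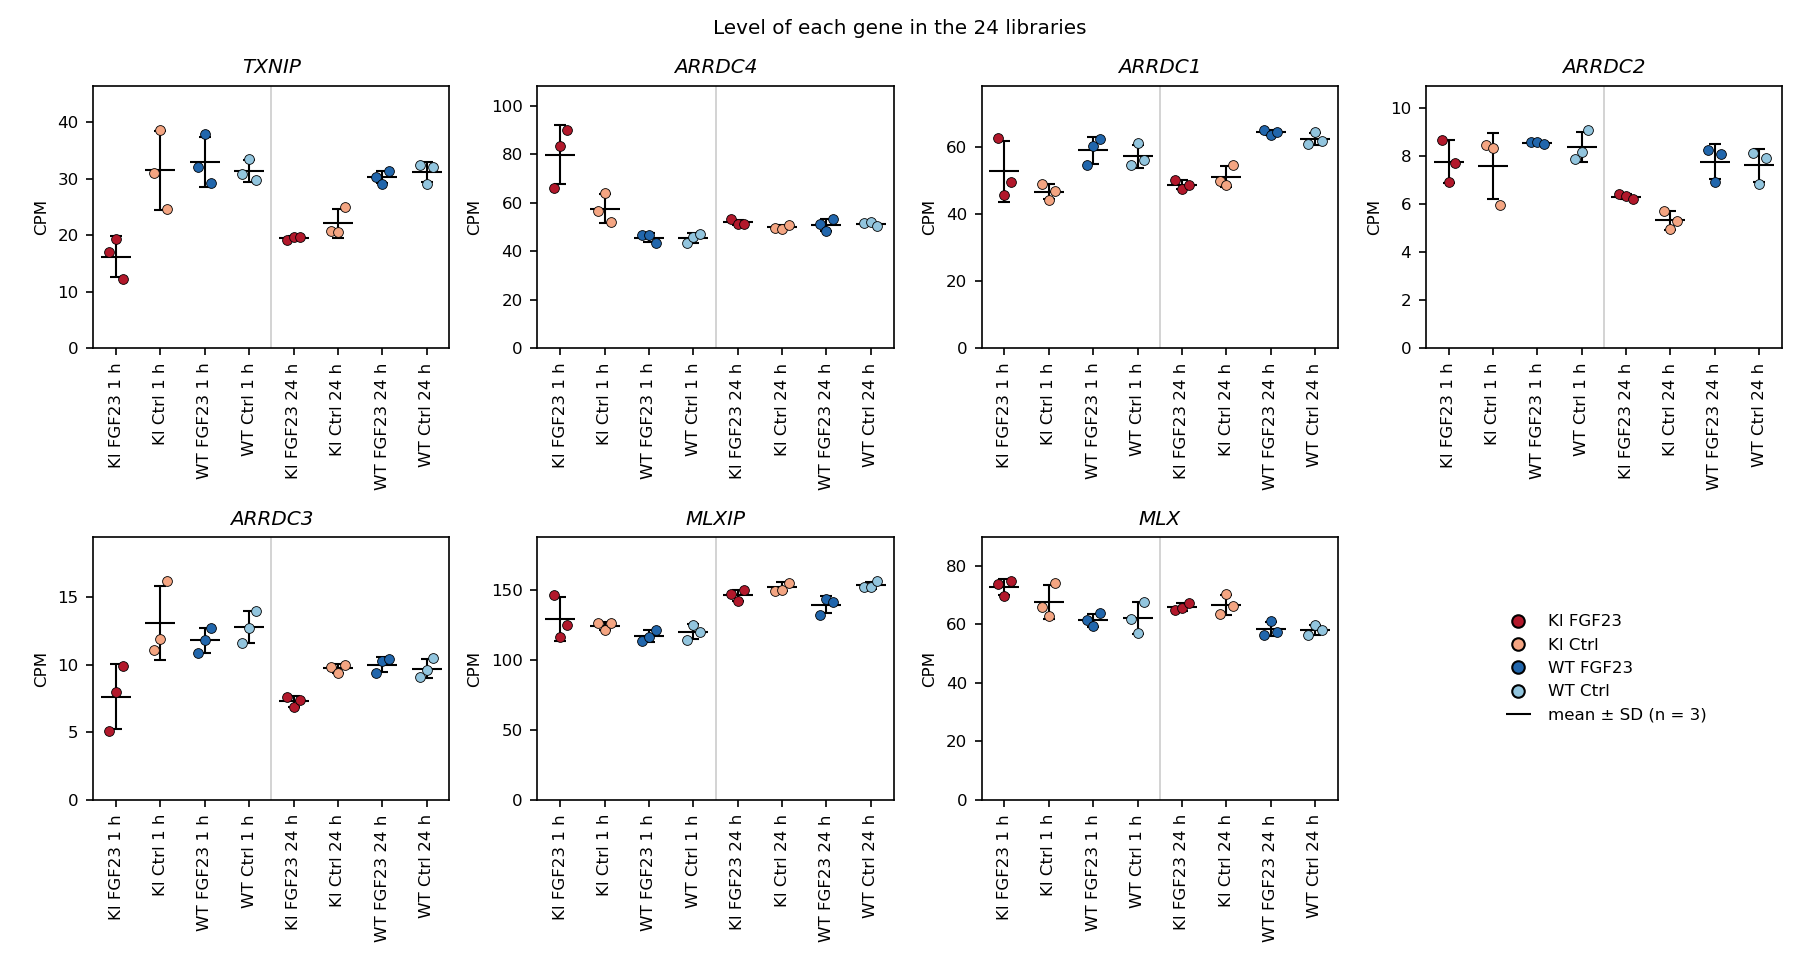
Level of each of the 7 genes in CPM (y axis, from 0) in the 8 groups (x axis, 1 h groups left of the grey line). Points are the 3 libraries of a group, and black bars show mean ± SD; TXNIP in Kl cells after 1 h of FGF23 lies at 12.2 to 19.3 CPM, below its controls at 24.7 to 38.7 CPM.

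TXNIP was lower after 1 h of FGF23 in Kl cells. It had 17, 19.3 and 12.2 CPM in the FGF23 libraries, against 31.0, 38.7 and 24.7 CPM in the Kl controls. All 3 FGF23 libraries lay below all 3 controls. The mean was 16.2 ± 3.66 CPM with FGF23 and 31.5 ± 7.01 CPM in controls (SD, n = 3 each), a fitted log2 fold change of -0.96 (SE 0.138). Leaving out any 1 of these 6 libraries gave -1.12 to -0.77. In bulk RNA, fewer cells with the transcript and less transcript per cell cannot be told apart.

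ARRDC3, an alpha-arrestin known for its part in the trafficking of beta-adrenergic receptors and in body mass in mice, was also lower. Its FGF23 libraries had 5.10, 7.95 and 9.87 CPM and its controls 11.1, 11.9 and 16.2 CPM. The groups did not overlap, and the log2 fold change was -0.75 (SE 0.151), or -0.95 to -0.56 with 1 library left out. ARRDC4, the alpha-arrestin closest to TXNIP in its known regulation, was higher. It had 66.3, 83.3 and 90.2 CPM with FGF23 and 56.7, 64.1 and 52.1 CPM in controls. Again no libraries overlapped, and the log2 fold change was 0.47 (SE 0.0825), or 0.40 to 0.59 with 1 library left out. Log2 SDs with FGF23 and in controls were 0.48 and 0.286 for ARRDC3, and 0.23 and 0.15 for ARRDC4. In the other groups they were at most 0.134 and 0.072, so these SEs also understate the spread.

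The other 4 members overlapped between FGF23 and control at 1 h in Kl. The log2 fold change was 0.17 (SE 0.0846) for ARRDC1, an adaptor of plasma membrane budding, and 0.02 (SE 0.129) for ARRDC2. It was 0.06 (SE 0.0645) for MLXIP and 0.11 (SE 0.0692) for MLX. Thus 3 of the 7 genes did not overlap in a contrast in which 13.7% of all tested genes did not overlap. By the stricter measure of an adjusted p below 0.05, 4.83% of tested genes were called there. Since TXNIP in this contrast chose the set, nothing is read from that count.

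WT cells given the same 0.5 nM FGF23 for 1 h showed no such separation. TXNIP had 32.0, 37.9 and 29.3 CPM with FGF23 and 30.8, 33.5 and 29.7 CPM in WT controls. These groups overlapped fully, and the log2 fold change was 0.07 (SE 0.131, adjusted p = 1, edgeR quasi-likelihood test with Benjamini-Hochberg adjustment). ARRDC4 had a log2 fold change of 0.01 (SE 0.0844) and ARRDC3 one of -0.11 (SE 0.145) in WT cells, and all 7 members overlapped between FGF23 and control, where 9.61% of all tested genes did not overlap. The Kl response minus the WT response at 1 h was -1.03 (SE 0.19) for TXNIP, -0.64 (SE 0.21) for ARRDC3 and 0.47 (SE 0.118) for ARRDC4 on the log2 scale, as a description. These SEs rest on the same shared spread and are too small for the Kl groups. None of the 7 genes was called in WT at 1 h by edgeR, DESeq2 or limma voom, none had an unadjusted p below 0.05, and 0% of tested genes were called. Of all tested genes 404 had an unadjusted p below 0.05 in edgeR, fewer than the 890 expected if none differed. The test was thus conservative in WT, and 0 calls do not show absence of a response.

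**Figure D2:**
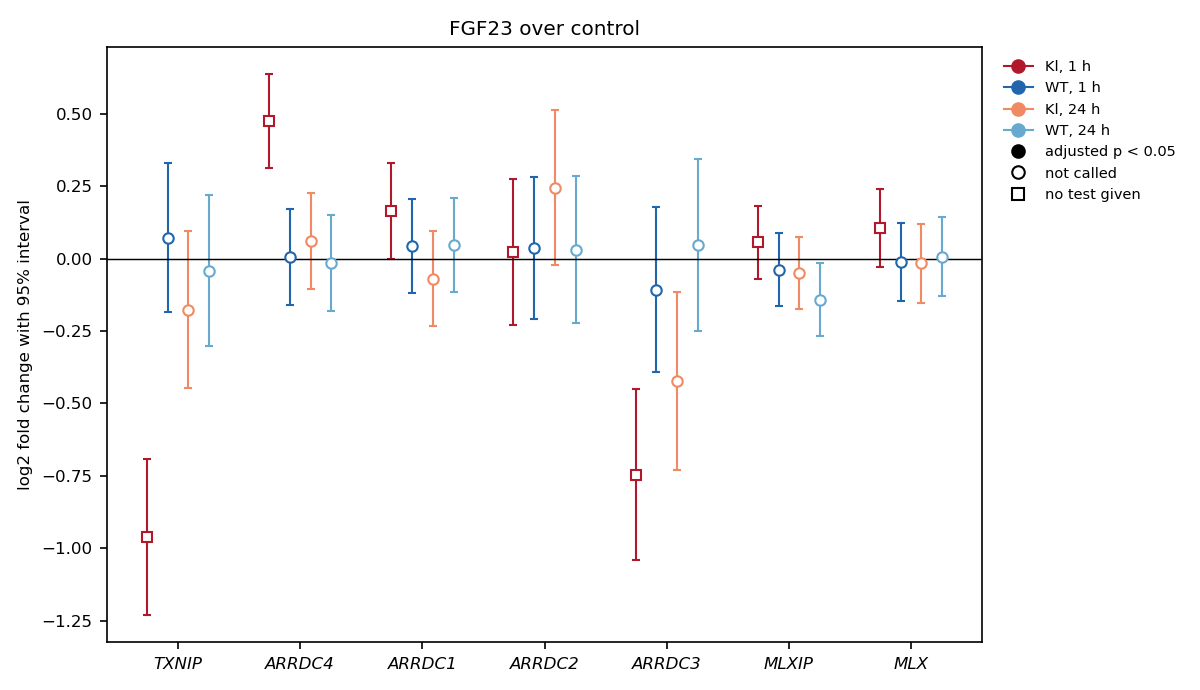
Log2 fold change of FGF23 over control for each gene (y axis), with bars of the 95% interval, in Kl and WT cells at 1 h and 24 h. Bars use a spread per gene shared by all groups, which is too small for TXNIP, ARRDC3 and ARRDC4 at 1 h in Kl. Squares mark the contrast given with no test and circles the tested ones; TXNIP at 1 h in Kl lies at -0.96, and in the other 3 contrasts its bars cross 0.

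After 24 h with 10 nM FGF23, no member was called in either line. In Kl cells TXNIP had 19.2, 19.7 and 19.7 CPM with FGF23 and 20.7, 20.5 and 25.0 CPM in controls. The groups did not overlap, but the log2 fold change was -0.18 (SE 0.139), with a 95% interval of -0.45 to 0.10 and an adjusted p of 0.514 (edgeR). ARRDC3 had 7.58, 6.85 and 7.42 CPM with FGF23, against 9.85, 9.38 and 9.98 CPM in controls. All FGF23 libraries were below all controls, with a log2 fold change of -0.42 (SE 0.157) and an adjusted p of 0.0954 in edgeR. This value was called by limma voom (adjusted p = 0.013) and in an edgeR fit to the 6 libraries of the contrast alone (adjusted p = 0.0125).

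ARRDC2 had 6.43, 6.32 and 6.20 CPM with FGF23 at 24 h and 5.72, 4.94 and 5.30 CPM in Kl controls, with no overlap (log2 fold change 0.25, SE 0.137, edgeR adjusted p = 0.307). ARRDC4 had 53.2, 51.2 and 51.4 CPM with FGF23 and 49.7, 49.0 and 50.7 CPM in controls. Those groups stood apart by a small margin, with a log2 fold change of 0.06 (SE 0.0842, edgeR adjusted p = 0.742). ARRDC1, MLXIP and MLX overlapped, with log2 fold changes of -0.07 (SE 0.0844), -0.05 (SE 0.064) and -0.02 (SE 0.0694). In this contrast 4 of 7 members did not overlap, against 31.4% of all tested genes. The count of called members was 0 of 7, where 8.57% of all tested genes were called. ARRDC3 had the single unadjusted p below 0.05 (unadjusted p = 0.0114, adjusted p = 0.0954 in edgeR). DESeq2 called 0 members and voom 1.

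In WT cells at 24 h TXNIP had 30.4, 29.1 and 31.3 CPM with FGF23 and 32.5, 29.1 and 32.1 CPM in controls, a log2 fold change of -0.04 (SE 0.133). MLXIP was the 1 member whose WT libraries did not overlap, against 14.8% of all tested genes, at 132, 143 and 141 CPM with FGF23 and 152, 152 and 156 CPM in controls. Its log2 fold change was -0.14 (SE 0.0641), with an unadjusted p of 0.0344 and an adjusted p of 1 in edgeR. No member was called by edgeR, DESeq2 or voom in this contrast, in which 0% of tested genes were called, whereas a fit to its 6 libraries alone called MLXIP at an adjusted p of 0.0323. Here too fewer genes had an unadjusted p below 0.05 in edgeR (541) than the 890 expected if none differed. The test of the Kl response minus the WT response at 24 h called 0 members against 3.78% of tested genes. The nearest was ARRDC3, at a log2 difference of -0.47 (SE 0.218, unadjusted p = 0.0394, adjusted p = 0.277 in edgeR). ARRDC3 was called there by voom (adjusted p = 0.0462) and from those 12 libraries alone (adjusted p = 0.0328), while DESeq2 called 0.

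Levels of TXNIP and ARRDC4 parted most in Kl cells after 1 h of FGF23. The ratio of TXNIP CPM to ARRDC4 CPM was 0.256, 0.232 and 0.135 with FGF23, against 0.546, 0.604 and 0.474 in the Kl controls. At 24 h it was 0.360, 0.385 and 0.383 with FGF23 and 0.417, 0.418 and 0.494 in Kl controls. The 1 h FGF23 libraries had the lowest ratios of the 24. The 12 WT libraries lay at 0.560 to 0.813. These ratios use values that chose the genes and are a description.

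**Figure D3:**
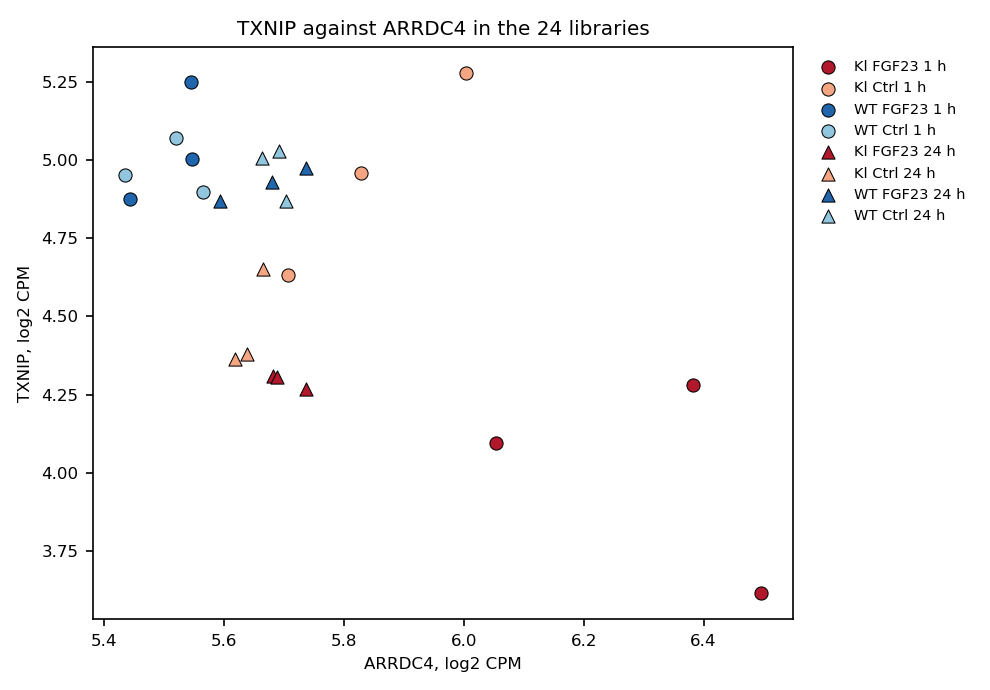
TXNIP (y axis) against ARRDC4 (x axis), both in log2 CPM, with 1 point for each of the 24 libraries; circles are 1 h and triangles 24 h. The 3 red circles, Kl with 1 h of FGF23, lie at the lower right with TXNIP to ARRDC4 ratios of 0.135 to 0.256.

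The promoters of the 3 genes whose libraries separated at 1 h in Kl are shown to set their E-box content side by side. Sequences are from RefSeq on GRCh38.p14, which holds entries for all 7 members, and run 5′ to 3′ on the gene's strand from 250 bases before the RefSeq start to the base before the earliest annotated transcript. TXNIP is chr1:145996601-145996829 on the minus strand, ARRDC4 is chr15:97960453-97960697 on the plus strand, and ARRDC3 is chr5:91383360-91383567 on the minus strand. Capitals mark a pair of E-box-like elements CACGNG separated by 5 bases in TXNIP and the palindromic E-box CACGTG in ARRDC4.
TXNIP: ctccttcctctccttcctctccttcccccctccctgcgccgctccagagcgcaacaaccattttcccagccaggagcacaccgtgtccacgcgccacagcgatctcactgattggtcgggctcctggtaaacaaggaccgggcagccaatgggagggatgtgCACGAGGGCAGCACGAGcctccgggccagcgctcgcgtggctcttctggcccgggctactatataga
ARRDC4: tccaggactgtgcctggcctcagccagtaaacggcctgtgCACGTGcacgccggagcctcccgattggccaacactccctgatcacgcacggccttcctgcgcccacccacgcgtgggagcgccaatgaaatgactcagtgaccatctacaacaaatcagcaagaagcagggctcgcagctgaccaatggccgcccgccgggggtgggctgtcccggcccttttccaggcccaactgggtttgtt
ARRDC3: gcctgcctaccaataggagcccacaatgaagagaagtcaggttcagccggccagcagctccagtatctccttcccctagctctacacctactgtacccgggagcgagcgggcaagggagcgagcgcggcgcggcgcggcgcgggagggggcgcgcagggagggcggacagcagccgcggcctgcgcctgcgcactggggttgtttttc

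Both strands of the 250 bases before each start were searched for CACGTG and for the pair of elements. The element CACGNG includes CACGTG, and alone it was found in 26.7% of entries. The pair in TXNIP lies 88 to 72 bases before its first RefSeq start and was found in 16 of 35116 promoter entries, or 0.0456%. CACGTG, found in 6.34% of entries, lies 210 to 205 bases before the ARRDC4 start and 50 to 45 bases before the MLX start. Neither motif was found in these windows of ARRDC1, ARRDC2, ARRDC3 or MLXIP. A match is a description of letters and not a site. Of the 16 genes with the pair, 13 were tested, and 3 of these, TXNIP included, were called between the untreated lines at 24 h, where 23.5% of all tested genes were called. TXNIP was lower in Kl there, and the others were higher, at log2 fold changes of 0.70 and 0.36.

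**Figure D4:**
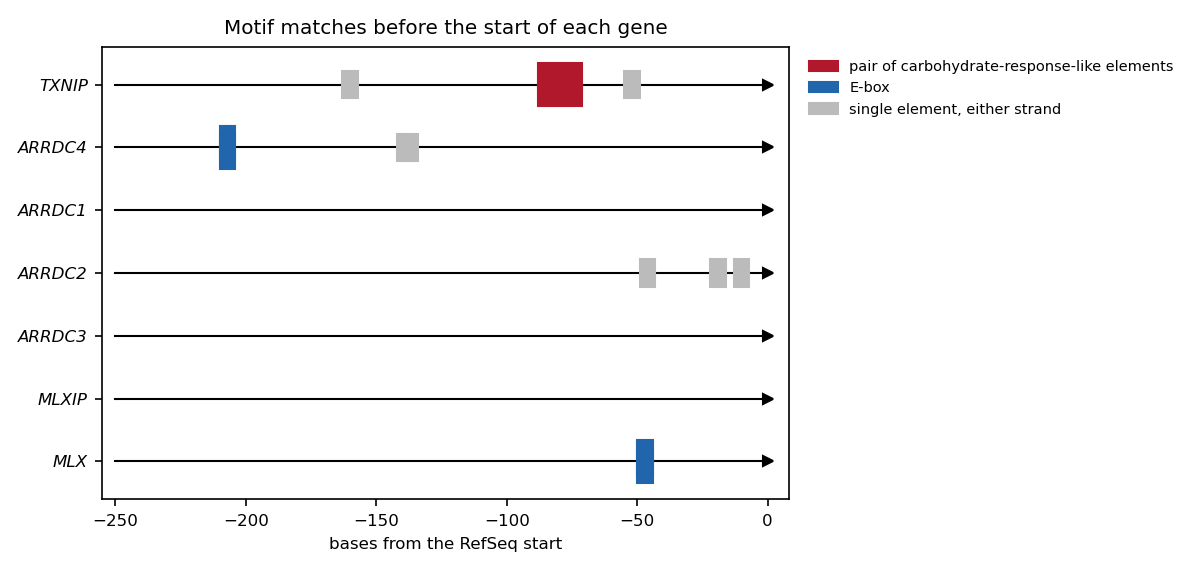
Matches in the 250 bases before the first RefSeq start of each gene (x axis, bases from the start, arrowhead at the start). Red marks a pair of CACGNG elements 5 bases apart, blue the E-box CACGTG and grey a single CACGNG on either strand; the pair is present in TXNIP and the E-box in ARRDC4 and MLX.

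Untreated Kl and WT controls differed in several members. At 1 h TXNIP did not separate the lines, at 31.5 ± 7.01 CPM in Kl and 31.4 ± 1.93 CPM in WT (SD, n = 3 each). This comparison uses the Kl 1 h controls, whose values helped choose TXNIP, and is not independent of that choice. At 24 h it had 20.7, 20.5 and 25.0 CPM in Kl controls, against 32.5, 29.1 and 32.1 CPM in WT controls. All Kl libraries were lower, and the log2 fold change of -0.50 (SE 0.136, edgeR adjusted p = 0.00826) stayed past the threshold in all 13 alternatives (adjusted p 3.16e-07 to 0.0461).

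ARRDC2 followed TXNIP in direction at 24 h, with 5.72, 4.94 and 5.30 CPM in Kl controls and 8.12, 6.85 and 7.90 CPM in WT controls. Its log2 fold change was -0.51 (SE 0.135, edgeR adjusted p = 0.00597), called in all 13 alternatives. ARRDC1, which recruits TSG101 to the plasma membrane for vesicle budding, was lower in Kl controls at both times. At 1 h it had 49.0, 44.4 and 47.1 CPM in Kl and 54.8, 61.3 and 56.1 CPM in WT, and at 24 h 50.1, 48.9 and 54.8 CPM in Kl and 61.0, 64.6 and 61.8 CPM in WT. The groups were separate at each time, with log2 fold changes of -0.30 at 1 h (SE 0.0841, edgeR adjusted p = 0.0144) and -0.29 at 24 h (SE 0.0838, edgeR adjusted p = 0.0124). The 1 h call was lost without replicate 2 of the Kl controls (adjusted p = 0.0842) or of the WT controls (adjusted p = 0.0951). The 24 h call was lost without Kl replicate 1 (adjusted p = 0.0503), Kl replicate 2 (adjusted p = 0.0701) or WT replicate 2 (adjusted p = 0.0659). ARRDC1 lies on chromosome 9, and whether other genes of that chromosome differed alike between the lines was not tested.

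ARRDC4 was higher in Kl controls at 1 h, at 56.7, 64.1 and 52.1 CPM against 43.2, 45.8 and 47.2 CPM in WT controls. The log2 fold change was 0.35 (SE 0.0838, edgeR adjusted p = 0.00388), and without Kl control replicate 2 it was 0.26 (adjusted p = 0.0552). At 24 h the ARRDC4 ranges met, at 49.0 to 50.7 CPM in Kl and 50.6 to 52.0 CPM in WT, with a log2 fold change of -0.05 (SE 0.0844). MLX was higher in Kl controls at 24 h, at 63.6, 70.3 and 66.1 CPM against 56.4, 59.7 and 57.9 CPM in WT. Its log2 fold change was 0.20 (SE 0.0699, edgeR adjusted p = 0.0368). That call was lost in 7 of 13 alternatives: with library size alone (0.146), with no filter (0.132), and without WT replicate 1 (0.117), 2 (0.053) or 3 (0.112) or Kl replicate 2 (0.163) or 3 (0.0904), all adjusted p. MLXIP and ARRDC3 overlapped between the lines at both times.

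In all, 2 of 7 members were called between the lines at 1 h, 1 higher and 1 lower, where 16% of tested genes were called (7.43% higher and 8.55% lower). At 24 h it was 4 of 7, with 1 higher and 3 lower, where 23.5% of tested genes were called (11.5% higher and 12% lower). The share of all tested genes whose libraries did not overlap was not computed between the lines, so separation there is a description. Of 17790 tested genes, 4952 at 1 h and 6106 at 24 h had an unadjusted p below 0.05 in edgeR.

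**Figure D5:**
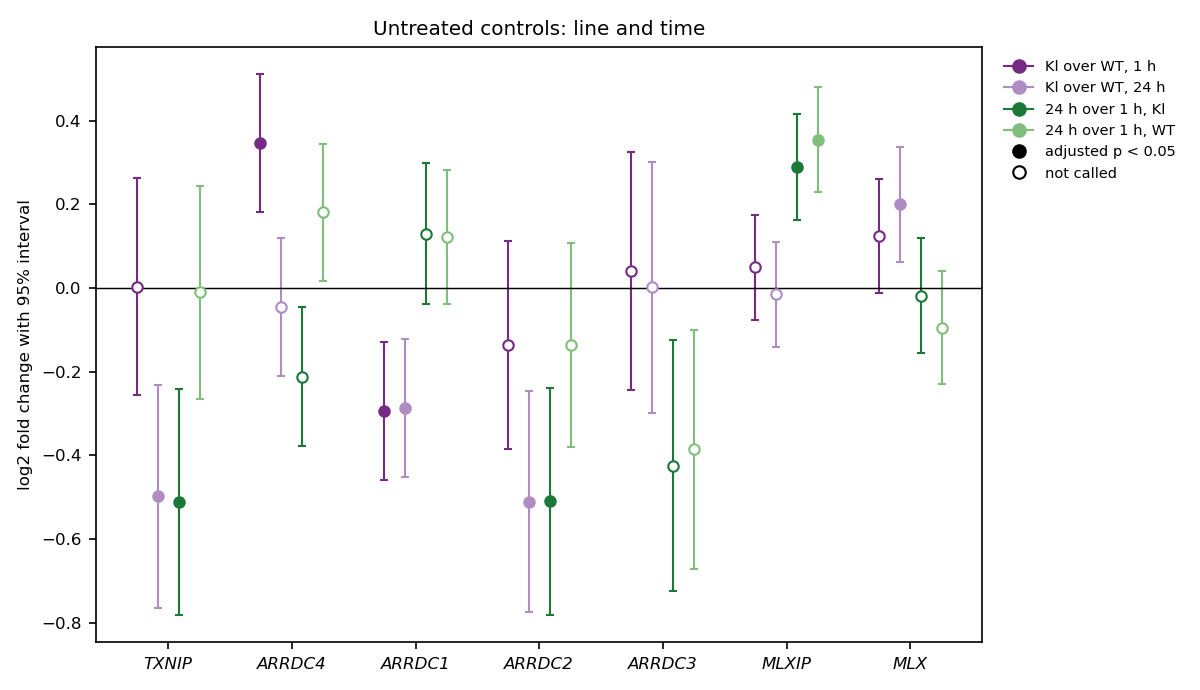
Log2 fold change in untreated controls for each gene (y axis), with bars of the 95% interval, for Kl over WT at each time and for 24 h over 1 h in each line. Filled circles were called at an adjusted p below 0.05; MLXIP is filled for time in both lines, at 0.29 and 0.35.

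MLXIP was higher at 24 h than at 1 h in untreated controls of both lines. In Kl it had 149, 150 and 155 CPM at 24 h and 126, 121 and 126 CPM at 1 h, and in WT 152, 152 and 156 CPM at 24 h and 114, 125 and 120 CPM at 1 h. The times did not overlap in either line, with log2 fold changes of 0.29 in Kl (SE 0.0647, edgeR adjusted p = 0.00351) and 0.35 in WT (SE 0.0639, edgeR adjusted p = 0.000415). Both calls held in all 13 alternatives. All 1 h libraries had sample names beginning with A, and all 24 h libraries had names beginning with B. Any difference between these sets cannot be told apart from time, here and in the comparisons over time below.

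TXNIP and ARRDC2 were lower at 24 h than at 1 h in Kl controls. The Kl 1 h controls are among the libraries whose values chose TXNIP, so its test over time in Kl is not independent of that choice. TXNIP had a log2 fold change of -0.51 (SE 0.138, edgeR adjusted p = 0.0145) although its times touched, at 20.5 to 25.0 CPM at 24 h and 24.7 to 38.7 CPM at 1 h. Without Kl 1 h control replicate 2 it was -0.33 (adjusted p = 0.152), and the call was also lost without Kl 24 h control replicate 1 (0.0769) or 2 (0.065) and with the 6 libraries alone (0.0502), all adjusted p. ARRDC2 had a log2 fold change of -0.51 (SE 0.138, edgeR adjusted p = 0.0142) and lost its call without Kl 1 h control replicate 1 (0.0784) or 2 (0.0863) or Kl 24 h control replicate 2 (0.0647), all adjusted p. In WT controls the log2 fold change over time was -0.01 (SE 0.13) for TXNIP and -0.14 (SE 0.124) for ARRDC2, neither called. Whether time acted differently in the lines was not tested.

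ARRDC3 did not overlap between times in either line: 9.38 to 9.98 CPM at 24 h and 11.1 to 16.2 CPM at 1 h in Kl, and 9.12 to 10.5 CPM at 24 h and 11.6 to 14 CPM at 1 h in WT. Its log2 fold changes of -0.43 in Kl (SE 0.153, edgeR adjusted p = 0.0632) and -0.39 in WT (SE 0.146, edgeR adjusted p = 0.0813) missed the threshold. They passed it in 6 and 4 of 13 alternatives in Kl and WT. The share of all tested genes whose libraries did not overlap was not computed for the comparisons over time, so non-overlap there is a description. Of 17790 tested genes, 4864 in Kl and 4645 in WT had an unadjusted p below 0.05 over time in edgeR.

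ARRDC4 stood apart between times in both lines, lower at 24 h in Kl and higher at 24 h in WT. In Kl it had 49.7, 49.0 and 50.7 CPM at 24 h and 56.7, 64.1 and 52.1 CPM at 1 h, a log2 fold change of -0.21 (SE 0.0848, edgeR adjusted p = 0.0978). In WT it had 51.6, 52.0 and 50.6 CPM at 24 h and 43.2, 45.8 and 47.2 CPM at 1 h, a log2 fold change of 0.18 (SE 0.0834, edgeR adjusted p = 0.163). Neither was called by edgeR in the fit to all libraries or by DESeq2. Both were called by limma voom (adjusted p = 0.0226 in Kl and 0.0181 in WT) and by edgeR from the 6 libraries of each contrast alone (adjusted p = 0.0266 in Kl and 0.0162 in WT). Without replicate 2 of the Kl 1 h controls the Kl value was -0.13 (edgeR adjusted p = 0.451).

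Over time 3 of 7 members were called in Kl controls, 1 higher and 2 lower, against 12.9% of tested genes (6.82% higher and 6.07% lower). TXNIP is among the lower ones, and the Kl 1 h controls in its test helped choose it, so nothing is read from that count. In WT controls 1 was called, higher, against 12.5% (6.08% higher and 6.45% lower).

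The genes most like TXNIP over the 24 libraries were BMF (Pearson r = 0.88 of log2 CPM), TP53INP1 (0.88), RMI1 (0.86), R3HDM2 (0.85) and AL353763.2 (0.84), of 11871 genes averaging at least 5 CPM. After each line's mean was subtracted, the closest were AC016747.1 (0.78), BMF (0.78), CDADC1 (0.76), TP53INP1 (0.76) and VPS33B (0.76). The libraries share lines, depth and the widely spread 1 h FGF23 group in Kl, so these r values only describe likeness. They include the 1 h Kl values of TXNIP that chose the genes, and subtracting line means leaves the 1 h difference in place. Among the members ARRDC3 ranked highest, at 0.58 (rank 824) and 0.46 (rank 612) with line means removed. ARRDC4 had r of -0.60 and -0.36, and MLX of -0.75 and -0.49.

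Other genes of glucose sensing were taken from lists chosen with results known. Of 17 MondoA and ChREBP genes other than the members (the paralog MLXIPL and textbook targets), 15 were tested. After 24 h of FGF23 in Kl, 5 were higher and 3 lower, against 4.91% and 3.66% of all tested genes; the list median was a log2 fold change of -0.01, and that of all genes 0. KLF10, a zinc finger repressor, averaged 57.8 ± 3.42 CPM with FGF23 and 31.3 CPM (30.3 to 32.6) in controls (log2 fold change 0.89, SE 0.0801, edgeR adjusted p = 2.1e-09). RGS16, which accelerates GTP hydrolysis by G proteins, averaged 12.1 ± 0.403 CPM with FGF23 and 7.16 ± 0.581 CPM in controls (0.76, SE 0.126, edgeR adjusted p = 0.000116). LDHA, the lactate dehydrogenase subunit, was lower at 728 ± 23.4 CPM with FGF23 and 901 ± 7.48 CPM in controls (-0.31, SE 0.0502, edgeR adjusted p = 9.27e-05; SD, n = 3 for each). FGF21, a hormone gene, was called higher at under 1 CPM, 0.742 to 0.934 with FGF23 and 0.0566 to 0.183 in controls. MLXIPL, the gene of ChREBP, stayed at 8.25 to 12.9 CPM in all libraries and was not called in any contrast. Over alternatives the list gave 3 to 6 higher and 1 to 5 lower.

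Between the untreated lines at 24 h, 10 of these 15 genes were higher in Kl and 2 lower, against 11.5% and 12% of all tested genes, with a median log2 fold change of 0.31 against -0.01 for all genes. HK2, the hexokinase that traps glucose in the cell, had 54.6 ± 1.33 CPM in Kl and 21.9 ± 1.24 CPM in WT (1.32, SE 0.151, edgeR adjusted p = 6.28e-07). LDHA (0.65), ACLY (0.61) and SCD (0.50), an enzyme of lactate formation and enzymes of lipid synthesis, were also higher on the log2 scale. At 1 h 7 were higher and 1 lower, against 7.43% and 8.55% of all tested genes (4 to 7 higher over the alternatives). Of the best known MondoA targets among the members, TXNIP was lower in Kl in the 24 h comparison and ARRDC4 was not called (log2 fold change -0.05, SE 0.0844). KLF10 and FGF21, higher after 24 h of FGF23 in Kl, had lower means in untreated Kl than in untreated WT at 24 h. KLF10 averaged 31.3 CPM in Kl and 47.4 CPM in WT, and FGF21 averaged 0.121 CPM in Kl and 0.532 CPM in WT. The list joins targets of MondoA and of ChREBP, and which factor acted on which gene was not tested.

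Of 13 tested glucose carriers and hexokinases, 2 rose and 1 fell in Kl after 24 h of FGF23, against 4.91% and 3.66% of all tested genes. SLC2A3, the neuronal-type glucose carrier GLUT3, averaged 186 ± 5.89 CPM with FGF23 and 53.7 ± 2.94 CPM in controls (SD, n = 3 each), with all libraries separate (log2 fold change 1.80, SE 0.191, edgeR adjusted p = 3.57e-06). SLC2A3 has a near-identical copy, SLC2A14, between which reads could have been split. Its Kl response exceeded the WT response by 1.84 (SE 0.271, edgeR adjusted p = 0.00037). SLC2A6, another carrier of the family, fell by 0.39 on the log2 scale (SE 0.106, edgeR adjusted p = 0.0178). The list median was -0.03, and over the alternatives 2 genes were higher and 0 to 4 lower. HK2 is on this list as well.

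Among partners of the arrestin-domain proteins, NEDD4 and NEDD4L, ubiquitin ligases that bind them, rose in Kl after 24 h of FGF23, 2 of 12 genes of that list, where 4.91% of all tested genes were higher. NEDD4 averaged 53.5 ± 4.11 CPM with FGF23 and 37.0 ± 3.19 CPM in controls (SD, n = 3 each; log2 fold change 0.54, SE 0.102, edgeR adjusted p = 0.00064), and NEDD4L had a log2 fold change of 0.25 (edgeR adjusted p = 0.021). ITCH, another ligase of the family, was lower in Kl than in WT controls at 1 h (-0.41) and at 24 h (-0.40). Of 17 thioredoxin system genes 1, the methionine sulfoxide reductase MSRB1, fell in Kl at 24 h of FGF23 (-0.25, edgeR adjusted p = 0.0222), with a list median of -0.14. In untreated Kl 6 of the 17, PRDX1 and PRDX3 among them, were higher than in WT at 24 h and none was lower, against 11.5% and 12% of all tested genes (4 to 9 higher and 0 to 1 lower over the alternatives). Of 6 other arrestin-fold genes VPS26B, a retromer subunit, fell (-0.26, edgeR adjusted p = 0.00351), and of 6 AMPK subunits PRKAA1 rose (0.31, edgeR adjusted p = 0.0394). The lists' medians were -0.11 and 0.06. Over the alternatives for 24 h of FGF23 in Kl, 1 to 4 genes of the ligase list and 0 to 2 AMPK genes were higher, and 0 to 6 thioredoxin system genes were lower. ARRDC5, an alpha-arrestin gene below the count filter, had 0 to 2 counts in every library.

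In the annotation ARRDC3 overlaps ARRDC3-AS1 by 3011 bases, ARRDC1 overlaps ARRDC1-AS1 by 29 bases and MLX overlaps PSMC3IP by 925 bases, each on the opposite strand. Stranding of the counts is not given in the sources used here, so reads in these stretches cannot be told apart. ARRDC3-AS1 had 14 to 52 counts per library where ARRDC3 had 81 to 356, and it was not called in any contrast.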

How the data were processed

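The deposited data were 4 tables, each with 6 of the 24 libraries; per the file headers they hold raw counts per gene, made by the authors, and gene length in bases. Aligner, counting program and stranding are not given in the sources used here. The labels name the build mm10, but gene IDs and coordinates are human, and 34299 of 34305 matched GRCh38 as annotated in GENCODE. The 48 scaled and FPKM columns were not used. The 4 tables were joined by gene ID, with a gene absent from a table taken as 0; the highest count of such a gene was 30. Counts were fitted in edgeR 4.0.16 (R 4.3.3) with TMM scaling, filterByExpr by group and robust quasi-likelihood dispersions. The model had 8 group means and 16 residual degrees of freedom, with Benjamini-Hochberg adjustment over 17790 genes within each of 10 contrasts. Alternatives were RLE factors, library size only, no filter, DESeq2 1.42.0, limma 3.58.1 voom with weights by group, the contrast's own libraries, a replicate block, and each library left out in turn. Scripts were tested on simulated counts. Intervals are 1.96 SE. Figures were drawn with matplotlib 3.10.9 in Python 3.11.15, and tables were handled with pandas 2.3.3.

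The members and gene lists were chosen with earlier results of these data known. Named are all members in every contrast and, from each list, at most 4 called genes with the smallest p, outside the 2 contrasts behind the choice, plus the 5 genes most like TXNIP. MLXIPL and ARRDC5 were named for their role. For library pairs within a group, the mean squared standardized difference in counts per gene was 2.02 to 39.6, with no threshold set for a duplicate. Such values cannot tell whether replicates came from separate cultures. A search for protein motifs was not run. The values of 1 called gene of the lists are not reported here.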

Additional observations from a re-analysis of the deposited data

How the results depend on the processing

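The 56 tested member fold changes were refitted 770 times under the alternatives; 20 refits lost a call, 20 gained one, none reversed one and the other 730 did none of these. The 14 fold changes given with no test have no call to lose, and their 224 refits moved by less than the largest SD (log2 CPM) of the groups compared. The calls that held throughout were TXNIP and ARRDC2 between 24 h controls of the lines and MLXIP over time in both lines. In the 3 tested FGF23 contrasts no member was called with any library left out.

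Counts moved with the setting. After 1 h of FGF23 in Kl 859 genes were called, against 1332 with no filter, 229 with limma voom, 90 with the contrast's own libraries and 403 to 2636 with 1 library left out (403 without Kl control replicate 2, 2636 without FGF23 replicate 2). After 24 h in Kl 1524 became 3177 with voom, 3128 with own libraries and 829 to 1504 with 1 left out. Members called there became 1 with voom, own libraries or the replicate block, from 0. In WT at 1 h 0 became 12 with no filter; at 24 h 0 became 7 with no filter, 2 with voom and 111 with own libraries, which called 1 member. At unadjusted p below 0.05, edgeR had 404 genes at 1 h and 541 at 24 h in WT. If no gene differed, 890 would be expected, so these tests were conservative and 0 calls do not show that FGF23 had no effect in WT.

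For the Kl response minus the WT response at 1 h, 131 genes became 369 with no filter, 207 with DESeq2, 60 with own libraries, 220 with the replicate block and 89 to 530 with 1 left out. At 24 h 673 became 2290 with voom and 2515 with own libraries, each calling 1 member, and 381 to 724 with 1 left out. Between the lines at 24 h 4183 became 6573 with voom and 6757 with own libraries. With 1 library left out, members called between the lines were 0 to 2 at 1 h (0 without Kl control replicate 2) and 2 to 3 at 24 h.

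Over time in Kl 2293 genes became 3688 with voom, 3809 with own libraries and 1123 to 1722 with 1 left out; members called became 5 with voom and 1 to 3 with 1 left out. In WT 2229 became 4610 with voom, 4475 with own libraries and 1127 to 1661 with 1 left out; members called became 3 with voom or own libraries and 2 with no filter or the replicate block. The cause of these moves was not tested. A fit with 1 library left out assumes that the remaining pair varies like the other groups.

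With library size alone the share of calls that were higher was 56.5%, against 80.7% with TMM, at 1 h of FGF23 in Kl, 32.6% against 48.8% between the lines at 24 h, and 64.3% against 48.5% over time in WT. Replicate numbers were shared across groups. FGF23 libraries correlated with the control of the same number by at most 0.12, and not by over 0.1 in every pair. The numbers therefore do not establish pairing, although at 1 h every FGF23 library correlated best with the control of its own number. Likeness of same-numbered libraries across lines or times was not checked. The block kept the side of the threshold in 53 of 56 tested member values. The 3 that gained a call were ARRDC3 after 24 h of FGF23 in Kl (adjusted p = 0.0182) and over time in Kl (0.0333) and in WT (0.032) in edgeR. Counts of 79 to 356 per library limit the precision of ARRDC2 and ARRDC3.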
